A study of Homo sapiens with 4 samples.

Results

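The mTOR complex and its regulators were followed as 10 genes, chosen by symbol: MTOR, RPTOR, RICTOR, MLST8, AKT1S1, DEPTOR, TSC1, TSC2, RHEB and RPS6KB1. All 10 were found among the 24424 gene symbols of the count tables. BEAS-2B, an immortalized human line from the bronchial epithelium, labelled as wild type, was profiled by RNA sequencing in 4 libraries with 1 library per condition. Control cells had no treatment, LPS cells received bacterial lipopolysaccharide for 2 hr, and the WT PDZ+LPS and mut PDZ+LPS cells received a peptide for 24 hr before the same 2 hr of LPS. The peptide was taken from the first PDZ domain of the tight junction protein ZO-1 and carried a TAT sequence for cell entry and a fluorescent FITC tag. The mutant peptide differed from the wild-type one by the change of a glycine pair to alanines, and no peptide was given without LPS in these libraries.

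With 1 library per condition the differences could not be checked against replicates, and p-values are left out. Each log2 fold change therefore has a 95% interval of the ratio of 2 libraries (exact binomial, Clopper-Pearson), which reflects counting error alone, as no molecular identifiers are named and reads need not be independent molecules. Totals ran from 19682929 counts in mut PDZ+LPS to 25155647 in LPS, and division by geometric size factors gave normalized counts. The epithelial keratin KRT7 had 38725 to 51663 normalized counts and the mesenchymal filament gene VIM 20794 to 24975, whereas the epithelial adhesion gene EPCAM had only 34.8 to 49.5. The pan-leukocyte gene PTPRC had 0 counts in all 4 libraries and the T cell gene CD3E at most 1, but CD14 and CD68, known from macrophages, had 366 to 523 and 305 to 362 normalized counts. In RNA of whole cultures, fewer expressing cells and less RNA per cell cannot be told apart.

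mTOR is a serine/threonine kinase that works in a pair of complexes. In mTORC1 it is joined by RPTOR, which recruits substrates, and in mTORC2 by RICTOR, while MLST8 and the inhibitor DEPTOR are found in both. AKT1S1 (PRAS40) holds back mTORC1 until AKT phosphorylates it. The TSC1-TSC2 complex keeps the small GTPase RHEB in its inactive form, and active RHEB switches on mTORC1 at the lysosome. mTORC1 then phosphorylates the kinase encoded by RPS6KB1 and raises protein synthesis, and in cells exposed to LPS the pathway is known to take part in cytokine production and metabolism. Most of this control acts on proteins, by phosphorylation and binding, which RNA counts do not measure.

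The promoters of 3 members are shown because these genes differed most between the mutant and wild-type peptide libraries before any correction for transcript length. Against WT PDZ+LPS, the long members MTOR and RICTOR had the lowest log2 fold changes of the 10 genes and RHEB, a short member, the highest. That choice follows the length trend of the mut PDZ+LPS library, given below. With a trend over length and GC content subtracted, MLST8 (-0.48) was lowest and TSC1 (0.38) highest. MTOR was then at -0.16, RICTOR at -0.14 and RHEB at 0.31. Each line gives the 250 bases before the gene's start in RefSeq (GRCh38.p14, minus strand, 5′ to 3′), and capitals mark matches to either of 2 motifs searched on both strands, the CCAAT box (CCAAT, or ATTGG on the other strand) and the NF-kB consensus. The MTOR window lies at chr1:11262552-11262801, the RICTOR window at chr5:39074400-39074649 and the RHEB window at chr7:151519896-151520145.
MTOR: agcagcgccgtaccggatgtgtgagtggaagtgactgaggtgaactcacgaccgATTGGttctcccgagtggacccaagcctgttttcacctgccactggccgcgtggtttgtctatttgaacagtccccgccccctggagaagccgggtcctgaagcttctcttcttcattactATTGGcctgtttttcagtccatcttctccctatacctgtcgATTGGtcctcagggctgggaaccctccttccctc
RICTOR: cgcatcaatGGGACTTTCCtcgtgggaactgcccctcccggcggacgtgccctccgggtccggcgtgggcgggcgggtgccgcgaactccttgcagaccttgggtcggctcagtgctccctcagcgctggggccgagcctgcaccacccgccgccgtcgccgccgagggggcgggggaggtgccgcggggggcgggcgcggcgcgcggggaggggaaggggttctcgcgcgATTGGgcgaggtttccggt
RHEB: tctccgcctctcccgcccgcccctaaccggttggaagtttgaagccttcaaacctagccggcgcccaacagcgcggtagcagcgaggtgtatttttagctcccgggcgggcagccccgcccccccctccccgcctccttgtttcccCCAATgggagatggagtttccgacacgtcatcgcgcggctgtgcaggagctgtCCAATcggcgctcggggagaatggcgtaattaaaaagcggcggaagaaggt
MTOR held 3 CCAAT boxes, all on the reverse strand, whose first bases lay 196, 75 and 34 bases before the start, and RHEB held 2 on the forward strand, 104 and 51 bases before it. RICTOR held 1 CCAAT box on the reverse strand near its start and 1 match to the NF-kB consensus that began 241 bases before it. Of 35116 promoter windows of this length in the table, 32% held a CCAAT box, 2.93% held at least 3, 9.96% held the NF-kB consensus and 2.88% held both motifs. The windows of TSC1, TSC2, RPS6KB1 and RPTOR held neither motif in these letters. The motifs describe the sequence and were not tied to any value here.

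The members ranged widely in level. MTOR, the kinase itself (chromosome 1), had 3863 normalized counts in Control and 3919 in LPS, then 3893 with the wild-type peptide and 2504 with the mutant one. Its first 3 values lay within one another's counting intervals and the mut PDZ+LPS value stood below all of them. MLST8 (chromosome 16), the small subunit that both complexes share, had 843, 823, 824 and 807 normalized counts in the same order. It was the steadiest of the 10 genes, with its highest library 1.04 times its lowest.

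Of the subunits that tell the complexes apart, RPTOR (chromosome 17, mTORC1) had 2459 normalized counts in Control and 2736 in LPS, with 2643 under the wild-type and 1999 under the mutant peptide. RICTOR (chromosome 5, mTORC2) had 1073, 1067, 1262 and 791. RICTOR was thus highest in the wild-type peptide library and lowest in the mutant peptide library, 1.60 times apart, while Control and LPS overlapped. Among the inhibitors, AKT1S1 (chromosome 19) had 1494, 1438, 1584 and 1693 normalized counts. DEPTOR (chromosome 8) was scarcely detected, with 16, 23, 12 and 13 reads in the 4 libraries, and its intervals overlapped in all of them.

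TSC1 (chromosome 9), which stabilizes the TSC complex, had 1084 normalized counts in Control and 890 in LPS, with 859 and 778 in the wild-type and mutant peptide libraries. TSC2 (chromosome 16), the part that acts on RHEB, had 1540, 1818, 1714 and 1571. Control was therefore the highest library for TSC1, and for TSC2 Control and mut PDZ+LPS overlapped as the lowest. RHEB (chromosome 7) had 2432, 2882, 2835 and 3769 normalized counts, lowest in Control and highest in mut PDZ+LPS. RPS6KB1 (chromosome 17), the substrate kinase, had 2332 in Control and 2932, 2841 and 2838 in the 3 libraries with LPS, which overlapped one another and lay above Control.

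**Figure D1:**
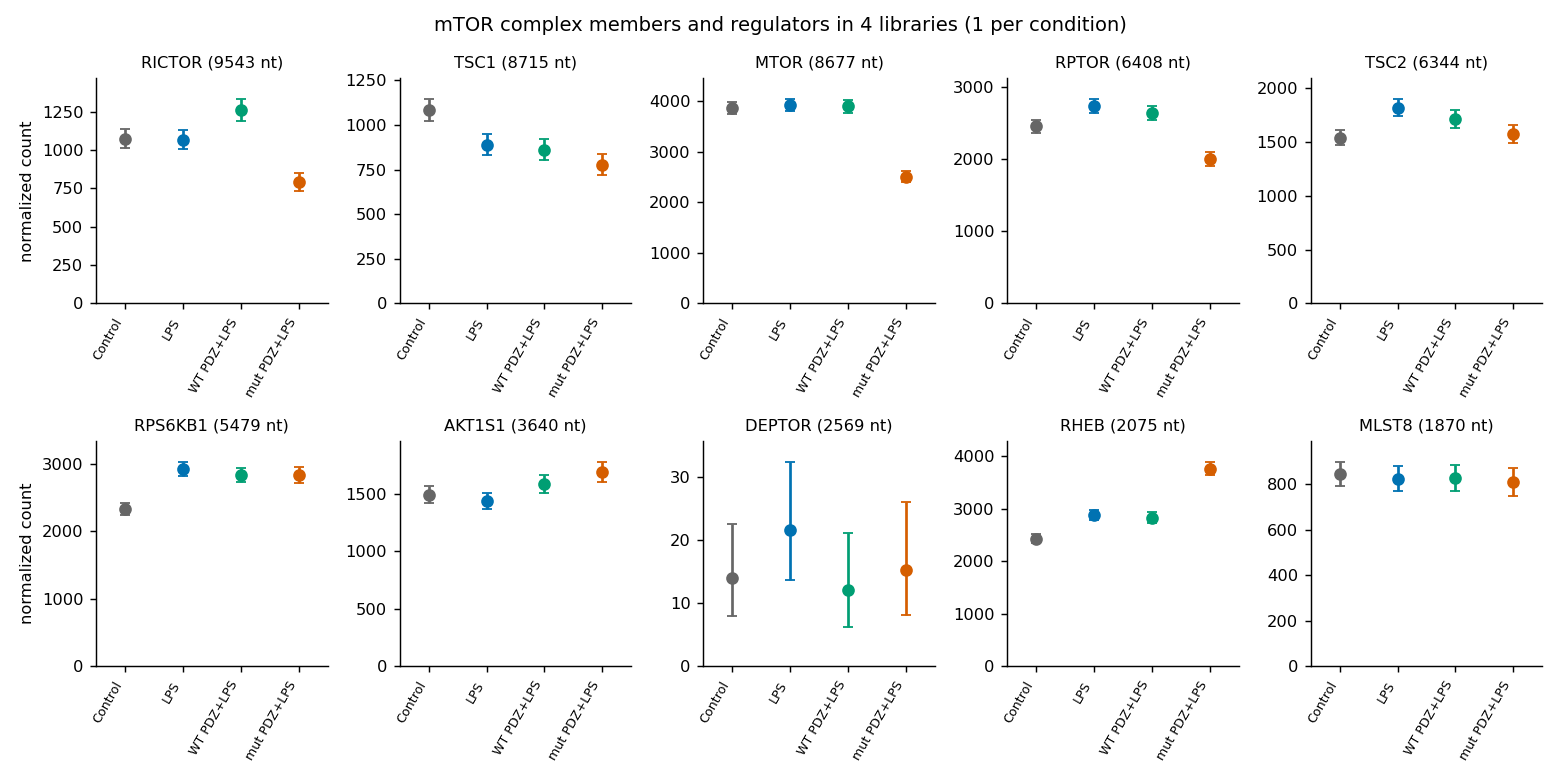
Normalized counts (y axes, from 0, each gene on its own scale) of the 10 genes in the 4 libraries, ordered by the length of the longest transcript, with exact Poisson 95% counting intervals and 1 library per point. MTOR goes from 3919 in LPS to 2504 in mut PDZ+LPS, RHEB goes from 2882 to 3769, and MLST8 stays between 807 and 843.

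Since a longer transcript yields more reads, levels of different genes were compared per kb of transcript, using the longest protein-coding one that GENCODE 29 lists. RHEB was highest, with 1172 to 1817 normalized counts per kb over the 4 libraries. RPS6KB1 (426 to 535), MLST8 (432 to 451), AKT1S1 (395 to 465), MTOR (289 to 452) and RPTOR (312 to 427) came next, and these neighbours overlapped over the libraries. TSC2, at 243 to 287 normalized counts per kb, lay under all of them. The lows of 289 for MTOR and 312 for RPTOR were those of mut PDZ+LPS. In Control, LPS and WT PDZ+LPS, MTOR had 445 to 452 and RPTOR 384 to 427, without overlap. RICTOR (82.9 to 132) and TSC1 (89.3 to 124) overlapped, and DEPTOR was lowest at 4.72 to 8.42. Per kb of coding sequence the order among the middle genes changed, since AKT1S1 (mean 1875) and RPS6KB1 (1737) then exceeded MLST8 (840), RPTOR (614) and MTOR (464), whereas RHEB stayed first (5398) and DEPTOR last (12.8). Which transcripts the reads came from is not given by counts per symbol. The RHEB count could hold reads of related copies: RHEBL1, a close relative with its own row, had 84 to 105 reads. The antisense gene MTOR-AS1 had 0 to 2 reads, and how the counting used the strand is not given in the sources used here.

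The first comparison, LPS/Control, set the library with 2 hr of LPS against the untreated one. RPS6KB1 was 1.26-fold higher in LPS (log2 fold change 0.33, interval 0.26 to 0.41), RHEB 1.19-fold (0.25, 0.17 to 0.32) and TSC2 1.18-fold (0.24, 0.15 to 0.33). RPTOR was 1.11-fold higher (0.15, 0.079 to 0.23). TSC1 was the lower one, at -0.28 (interval -0.41 to -0.16). MTOR (0.021), RICTOR (-0.0086), MLST8 (-0.035) and AKT1S1 (-0.055) had intervals that held 0, and DEPTOR, with 16 reads against 23, was at 0.60 with an interval from -0.35 to 1.65.

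Hence 4 of the 10 genes had an interval above 0 and 1 below 0 in LPS/Control. Over all 13277 genes with at least 16 normalized counts in either library, 25.9% had an interval above 0 and 21.3% below, and 4.87% differed by at least 2-fold, as did 0 of the 10 members. The median over the members was 0.087, beside -0.0010 over the 13072 genes whose mean reached 16 normalized counts. It was 0.021 over the 5 members with the longest transcripts and 0.25 over the 5 shortest, or 0.11 over the shortest without DEPTOR. Spearman's rho between transcript length and log2 fold change was -0.333 over the 10 members and 0.155 over 12106 genes. The difference between long and short members was not tested. Scaling by total count moved the median of all genes to -0.13 and every member down with it. On that scale RPS6KB1 (0.20), RHEB (0.11) and TSC2 (0.11) still had intervals above 0, RPTOR (0.023, interval -0.052 to 0.098) lost its call, and 5 members, MTOR (-0.11) and TSC1 (-0.42) among them, had intervals below 0.

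The next comparison set WT PDZ+LPS against LPS, with 1 library each, so the wild-type peptide and the library cannot be told apart. RICTOR was 1.18-fold higher (log2 fold change 0.24, interval 0.13 to 0.36) and AKT1S1 was at 0.14 (0.037 to 0.24). The other 8 genes had intervals that held 0. MTOR was at -0.0097 (interval -0.073 to 0.054), RPTOR at -0.050 (-0.13 to 0.026), MLST8 at 0.0016 (-0.14 to 0.14) and RHEB at -0.024 (-0.098 to 0.051). TSC1 (-0.050), RPS6KB1 (-0.046) and TSC2 (-0.086, interval -0.18 to 0.0092) were slightly under 0, and DEPTOR, at -0.79, had an interval from -1.98 to 0.23.

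Thus 2 of the 10 members had an interval above 0 and 0 below, where all 13236 genes gave 12.1% above and 10.2% below. A 2-fold difference was seen in 0 members and in 1.37% of all genes. With a lowess trend over length and GC subtracted, TSC2 (-0.10, interval -0.20 to -0.0061) and RPS6KB1 (-0.080, -0.15 to -0.0056) also had intervals just below 0. The member median was -0.035 and that of all genes 0.0075. Values here carried little length trend: over 12106 genes with a transcript length, Spearman's rho between length and log2 fold change was 0.0755, a description across genes that share both libraries.

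**Figure D2:**
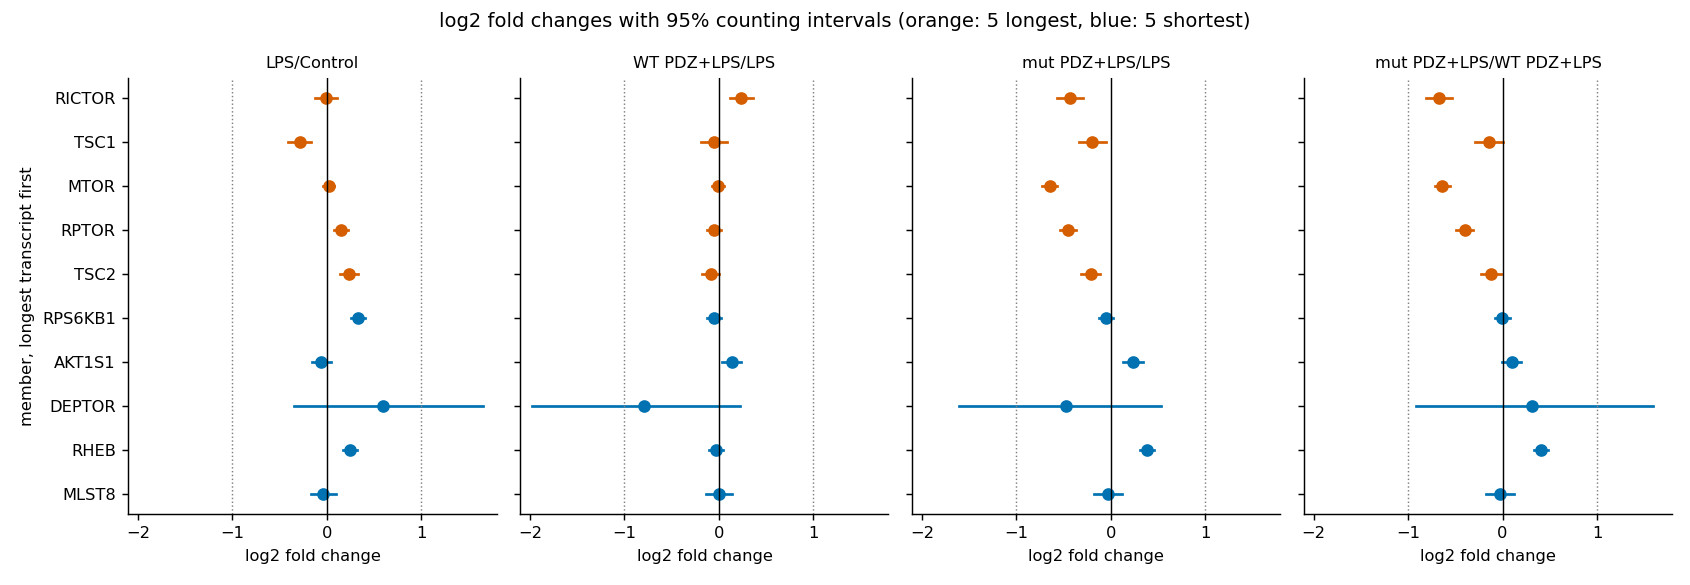
log2 fold change (x axes) of each gene in the 4 comparisons, with 95% counting intervals as lines, 2-fold at the dotted lines and genes ordered by transcript length (5 longest in orange, 5 shortest in blue). In mut PDZ+LPS/LPS the 5 longest genes all lie below 0, from -0.65 for MTOR to -0.19 for TSC1, and DEPTOR has the widest interval in every panel.

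Against LPS, the mut PDZ+LPS library had lower values for the long members. MTOR (8677 nt) was at -0.65 (interval -0.72 to -0.57), or 0.639 times its level in LPS. RPTOR (6408 nt) was at -0.45 (-0.54 to -0.37) and RICTOR (9543 nt) at -0.43 (-0.57 to -0.29). TSC2 (6344 nt) and TSC1 (8715 nt), both of the TSC complex, were at -0.21 (-0.31 to -0.11) and -0.19 (-0.34 to -0.049). All 5 long members therefore had an interval below 0.

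The 5 short members spread to both sides. RHEB (2075 nt) was 1.31-fold higher in mut PDZ+LPS (log2 fold change 0.39, interval 0.32 to 0.46) and AKT1S1 (3640 nt) 1.18-fold higher (0.24, 0.13 to 0.34). MLST8 (1870 nt) was at -0.028 (-0.17 to 0.12) and RPS6KB1 (5479 nt) at -0.047 (-0.12 to 0.030), both with intervals that held 0. DEPTOR (2569 nt), with 23 and 13 reads, was at -0.48 with an interval from -1.61 to 0.54. In all, 2 of 10 members had an interval above 0 and 5 below, beside 28.8% and 33.7% of 13378 genes, and 0 members reached 2-fold, beside 3.95% of genes.

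In mut PDZ+LPS/LPS the median was -0.43 over the 5 long members, -0.028 over the 5 short ones and -0.20 over all 10, beside -0.023 over all genes. Without DEPTOR the median of the short members was 0.10. The same split stood on a trend over the whole library. By deciles of transcript length, the median of all genes was 0.40 in the shortest decile (312 to 1489 nt) and -0.47 in the longest, with a rho of -0.605 over 12106 genes. Across the members, which share both libraries, rho was -0.539 (n = 10) and -0.767 without DEPTOR (n = 9). The coding length, which leaves out the untranslated ends, put the same genes into the long and short classes.

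Each member was then set beside the genes of its own length decile. MTOR, RICTOR and TSC1 belonged to the longest decile (7618.5 to 109224 nt) and were near its short end. The middle 50% of its genes ran from -0.72 to -0.21. MTOR (-0.65) and RICTOR (-0.43) lay inside that range and TSC1 (-0.19) just above it. RPTOR and TSC2 were inside the range of decile 9 (-0.55 to -0.082), and RPS6KB1 was inside that of decile 8 (-0.46 to -0.0031). Among shorter genes, RHEB lay above its range (-0.049 to 0.35) and AKT1S1 above its own (-0.31 to 0.098). MLST8 lay below the range of its length (0.060 to 0.42), and DEPTOR, with its few reads, did so too. So 5 of the 10 genes were inside the middle 50% of their decile, 3 above and 2 below.

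**Figure D3:**
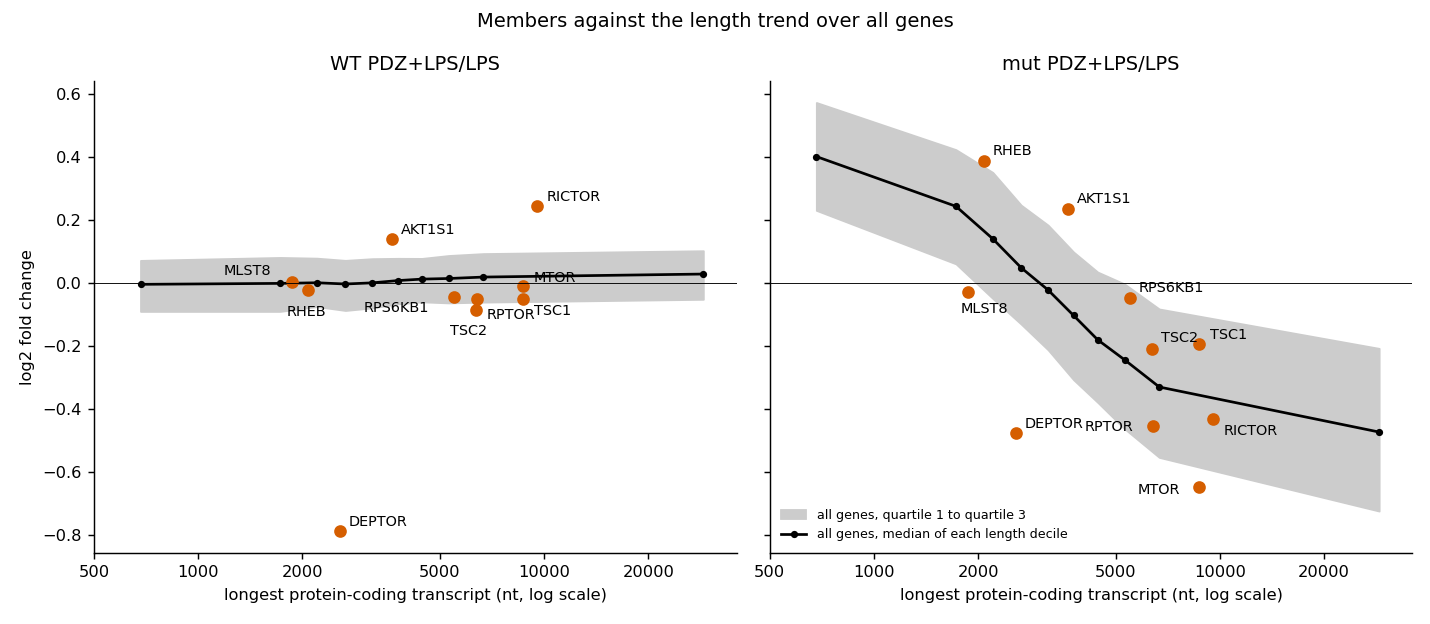
log2 fold change (y axis) against the longest protein-coding transcript (nt, log axis) for the 10 genes (orange), over the median (black line) and middle 50% (grey) of all genes by deciles of length, each decile drawn at the middle of its length range. In WT PDZ+LPS/LPS the line stays near 0, whereas with the mutant peptide it goes from 0.40 to -0.47, and RICTOR, RPTOR, TSC2 and RPS6KB1 lie in the grey band. The band is joined between the decile middles. MTOR is therefore drawn below it and TSC1 within it, although by its own decile MTOR is inside the middle 50% and TSC1 above.

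A lowess trend over length and then GC content was subtracted from every gene. MTOR was left at -0.18 (interval -0.26 to -0.11) in mut PDZ+LPS/LPS and RPTOR at -0.25 (-0.34 to -0.17), so both stayed below 0 with smaller values. RICTOR moved from -0.43 to 0.052 (-0.089 to 0.19) and TSC2 to -0.034 (-0.14 to 0.068), with 0 inside both intervals. TSC1 turned from -0.19 to 0.31 (0.16 to 0.45), and RPS6KB1 went from -0.047 to 0.26 (0.18 to 0.33).

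RHEB (0.29, interval 0.22 to 0.36) and AKT1S1 (0.19, 0.087 to 0.30) stayed above 0 under the correction. MLST8 moved the other way, from -0.028 to -0.48 (-0.63 to -0.34), the trend for genes as short and GC-rich as MLST8 (64.1% GC) being 0.45. With length alone corrected, MLST8 was at -0.24. After the correction 4 members had an interval above 0 and 3 below, beside 25.5% and 26.2% of all genes. The medians became -0.034 for the long members, 0.19 for the short ones and 0.0090 for all 10, and rho with length over the 10 genes was 0.285. The corrected intervals hold counting error but no error of the trend. The trend belongs to the one mut PDZ+LPS library, also the shallowest, so the peptide and the library cannot be told apart.

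The last comparison set mut PDZ+LPS against WT PDZ+LPS, 2 libraries whose labels differ in the form of the peptide. It shares the mut PDZ+LPS library with the comparison above and so the same trend (rho -0.614 over 12106 genes, and -0.842 over the 10 members). RICTOR, highest in WT PDZ+LPS, was at -0.67 (interval -0.81 to -0.54), MTOR at -0.64 (-0.71 to -0.56), RPTOR at -0.40 (-0.49 to -0.31) and TSC2 at -0.13 (-0.23 to -0.021). RHEB was 1.33-fold higher (0.41, 0.34 to 0.48). TSC1 (-0.14, -0.29 to 0.0045), AKT1S1 (0.096, -0.0083 to 0.20), MLST8 (-0.030), RPS6KB1 (-0.0015) and DEPTOR (0.31, -0.92 to 1.60) had intervals that held 0.

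DEPTOR, with 12.1 and 15.3 normalized counts, did not reach the expression rule in this comparison. Of the 10 members 1 had an interval above 0 and 4 below, beside 29.4% and 34% of 13372 genes, and 0 members reached 2-fold, beside 4.26% of genes. The medians were -0.40 over the long members, 0.096 over the short ones and -0.077 over all 10, against -0.020 over all genes. Without DEPTOR they were 0.047 over the short members and -0.13 over the 9 genes. With the length and GC trend subtracted, MTOR was at -0.16 (-0.23 to -0.079), RPTOR at -0.19 (-0.28 to -0.10) and RICTOR at -0.14 (-0.28 to -0.0018). RHEB (0.31), RPS6KB1 (0.33) and TSC1 (0.38) then had intervals above 0, MLST8 (-0.48) lay below, and TSC2 turned to 0.064 with an interval that held 0. These corrected counts, 3 above and 4 below, stood beside 25.5% and 26.3% of all genes.

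**Figure D4:**
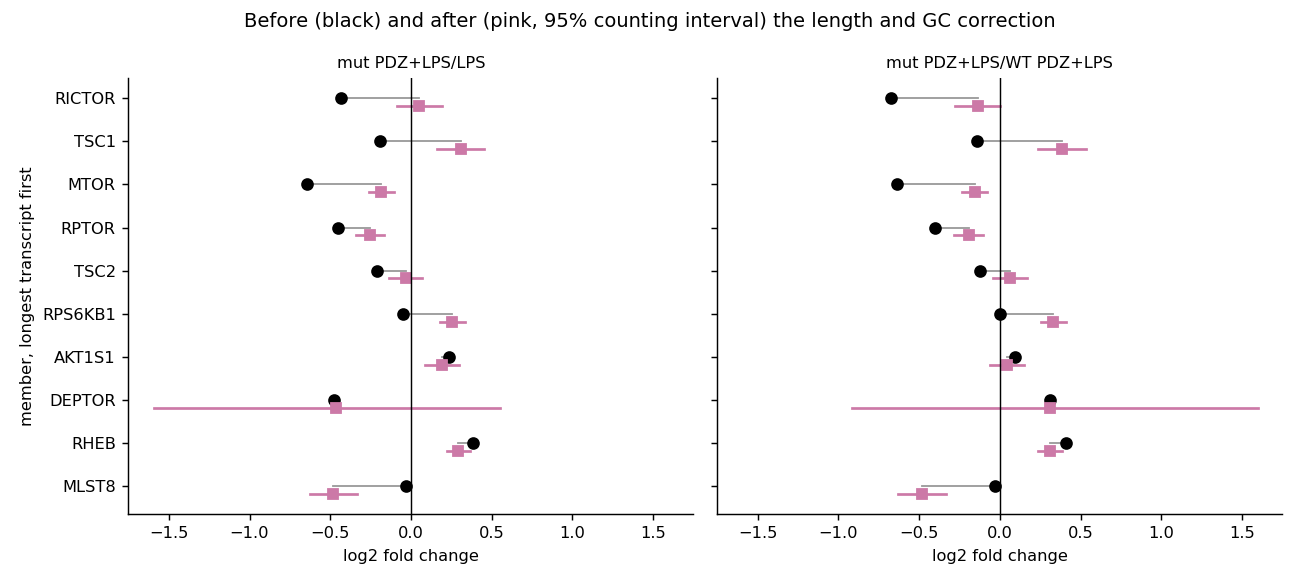
log2 fold change (x axes) of each gene in the comparisons of mut PDZ+LPS with LPS and with WT PDZ+LPS, before (black points) and after (pink squares with 95% counting intervals) subtraction of the length and GC trend. In mut PDZ+LPS/LPS, MTOR moves from -0.65 to -0.18, RICTOR from -0.43 to 0.052 and MLST8 from -0.028 to -0.48, while RHEB stays above 0 (0.39 and 0.29).

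Ratios of reads within 1 library do not depend on the scaling of libraries. TSC1 to TSC2, the partners of 1 complex, went from 0.704 in Control to 0.489 in LPS, with 0.501 and 0.495 under the wild-type and mutant peptides. The log2 change was -0.52 in LPS/Control (exact interval -0.68 to -0.37), and mut PDZ+LPS/LPS gave 0.017 (-0.16 to 0.19). With the length and GC trend of each gene subtracted, the latter became 0.34 (0.16 to 0.52), since the trend was -0.50 for TSC1 and -0.18 for TSC2, and LPS/Control stayed at -0.53. RPS6KB1 to its paralog RPS6KB2 went from 2.41 in Control to 3.19 in LPS (log2 change 0.40, 0.26 to 0.55).

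RICTOR to RPTOR, the subunits of mTORC2 and mTORC1, was 0.436 in Control and 0.390 in LPS, 0.478 with the wild-type peptide and 0.396 with the mutant one. The WT PDZ+LPS value was higher than that of LPS by 0.29 on the log2 scale (0.15 to 0.43), and mut PDZ+LPS differed from LPS by 0.021 (-0.14 to 0.19). After the correction these changes were 0.26 (0.12 to 0.40) and 0.30 (0.14 to 0.47). MTOR to MLST8, a long and a short partner, was 4.58, 4.76 and 4.72 in the first 3 libraries and 3.10 in mut PDZ+LPS (-0.62 against LPS, -0.78 to -0.45). RHEB to TSC2, the GTPase against the part that inactivates it, was 1.58, 1.59 and 1.65 and then 2.40 in mut PDZ+LPS, a log2 change of 0.60 against LPS (0.47 to 0.72). After the correction MTOR to MLST8 turned to 0.30 (0.13 to 0.46) and RHEB to TSC2 was 0.33 (0.20 to 0.45), so the ratios in mut PDZ+LPS depend on whether the trend is subtracted.

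Around the 10 genes, 72 others of the pathway were followed in 5 lists, and all were found in the tables, 3 of them under an older symbol. In LPS/Control, 71 could be tested by the expression rule, 3 were at least 2-fold higher and 0 lower, near the 4.87% of all genes that differed this much. SGK1, a kinase that mTORC2 activates, was highest at 1.79 (interval 1.61 to 1.98), with 305 reads in Control against 979 in LPS. IRS2, an adaptor that links insulin receptors to PI3K, was at 1.41 (1.33 to 1.502), and GATSL3, the older name of the arginine sensor CASTOR1, at 1.48 (0.90 to 2.16) on 31 and 82 reads.

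Among genes whose mean reached 100 normalized counts, the lowest of the lists in LPS/Control included DDIT4 and SESN2, which restrain mTORC1. DDIT4 (REDD1), which acts through the TSC complex, was at -0.68 (interval -0.73 to -0.64), from 9139 to 5695 normalized counts. SESN2, a leucine sensor, was at -0.53 (-0.75 to -0.33), PRR5L, which binds mTORC2, at -0.87 (-1.06 to -0.68) and LPIN1, a phosphatidate phosphatase under mTORC1 control, at -0.49 (-0.56 to -0.43). LAMTOR2, a Ragulator subunit, was lowest in its list at -0.16. By the same rule the highest of their lists included TELO2, which stabilizes mTOR (0.071), SEH1L of GATOR2 (0.31) and FNIP2, a partner of folliculin (0.47). The medians of the lists ran from -0.17 for the GATOR complexes and amino acid sensors to 0.029 for the mTOR effectors.

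By counting intervals, 17 of the 71 genes lay above 0 and 20 below in LPS/Control, beside the 25.9% and 21.3% of all genes. Among the GATOR complexes and amino acid sensors 2 of 17 lay above and 6 below, and among the mTORC1 and mTORC2 partners 0 of 5 above and 2 below. The Rag GTPases and Ragulator gave 3 of 13 above and 3 below, the PI3K, AKT and AMPK inputs 7 of 19 and 6, and the mTOR effectors 5 of 17 and 3.

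In WT PDZ+LPS/LPS 0 of the 71 genes reached 2-fold, 12 had an interval above 0 and 6 below, and the median was 0.015. Over all genes 1.37% reached 2-fold, 12.1% lay above 0 and 10.2% below. SGK1 was at -0.44 (interval -0.59 to -0.30), IRS2 at -0.12 (-0.19 to -0.051) and DDIT4 at 0.12 (0.068 to 0.17). These genes were named for their values in LPS/Control, which shares the LPS library, so a value on the side toward Control is no separate result. The same holds for PRR5L (0.098), SESN2 (0.16), LPIN1 (0.076), LAMTOR2 (0.024) and GATSL3 (-0.25), which also lay toward Control. Of these, only LPIN1 had an interval without 0 (0.0029 to 0.15). FNIP2 (0.086), SEH1L (0.030) and TELO2 (0.082), named by the same rule, lay on the side away from Control, each with an interval that held 0. In WT PDZ+LPS the levels were 677 normalized counts for SGK1, 3228 for IRS2 and 6186 for DDIT4, beside 265, 1315 and 9139 in Control. Against LPS, mut PDZ+LPS gave -0.27 for SGK1, -0.11 for IRS2 and 0.23 for DDIT4, and with the trend subtracted -0.16, 0.21 and -0.081.

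In mut PDZ+LPS/LPS the only pathway gene past 2-fold was FNIP2 (6925 nt), 1 of 71 beside 3.95% of all genes, at -1.41 (interval -1.64 to -1.19) with 725 reads in LPS and 218 in mut PDZ+LPS. It had 564 reads in Control and 717 in WT PDZ+LPS, so that 1 library was low. After the length and GC correction FNIP2 was at -0.98, under the 2-fold line. In mut PDZ+LPS/WT PDZ+LPS it was again the single gene past 2-fold, of 70 tested beside 4.26% of all genes, at -1.495 and -1.04 after the correction. The median of the pathway genes was -0.078 there and -0.085 in mut PDZ+LPS/LPS. In the latter 16 of 71 had an interval above 0 and 28 below, beside 28.8% and 33.7% of all genes, and after the correction 14 and 24, beside 25.5% and 26.2%.

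**Figure D5:**
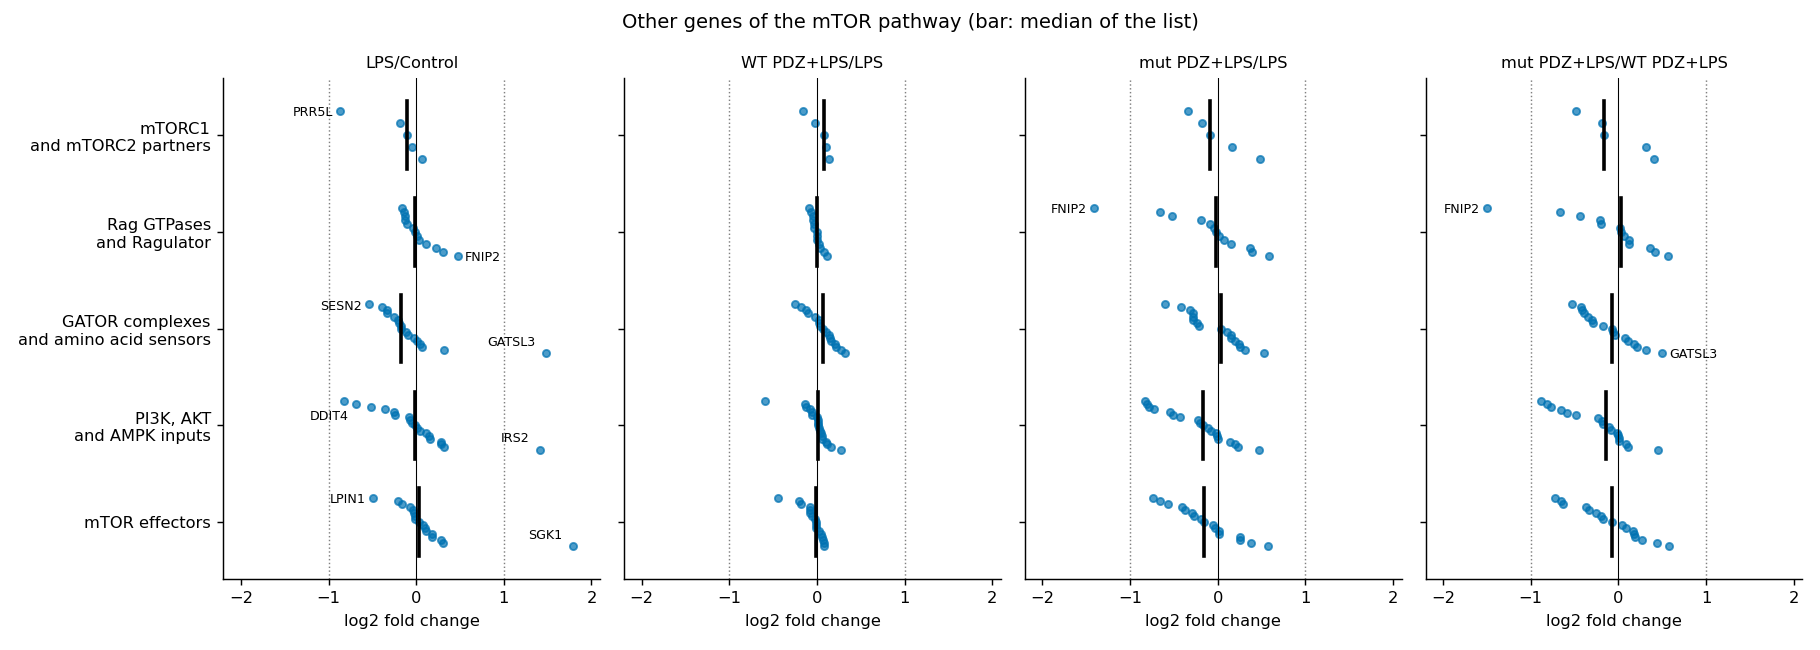
log2 fold change (x axes) of the other pathway genes in 5 lists (y axis) for the 4 comparisons, 1 point per gene, with the median of each list as a black bar and 2-fold at the dotted lines. SGK1 (1.79), GATSL3 (1.48) and IRS2 (1.41) stand past 2-fold in LPS/Control, and FNIP2 in both comparisons of mut PDZ+LPS.

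The genes with the pattern most like that of MTOR over the 4 libraries, without the length and GC correction, were HDLBP, SPG11 and CHTF8. They had the smallest root-mean-square difference of centred log2 normalized counts (0.0054, 0.0069 and 0.0080) among 7673 genes with a mean of at least 500. MTOR itself was nearly level in the first 3 libraries and lower only in mut PDZ+LPS, the library with the length trend. Likeness therefore rests mainly on that library, and shared regulation was not tested. HDLBP, which encodes an RNA-binding protein, had 17969, 18197, 17947 and 11656 normalized counts from Control through LPS to the wild-type and mutant peptide libraries. SPG11 was level in the first 3 libraries too, at 1501 to 1522, and lower in mut PDZ+LPS at 976. The longest transcripts of these genes were 6372, 7774 and 2903 nt. RICTOR and RPTOR ranked 938 and 1071 by the same measure and RHEB 6953, with the other members of that level in between and DEPTOR too low to be ranked.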

How the data were processed

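Per the labels and the study's methods, poly(A)-selected RNA of BEAS-2B cells was made into libraries with a directional kit and sequenced in paired ends, and the authors trimmed the reads and mapped them with TopHat; the submitters' processing notes name hg19. The annotation, the counting tool and its strand setting are not given in the sources used here. The authors deposited read counts per gene symbol, all whole numbers whose totals differ between libraries; the geometric normalization and FPKM named in the methods were not in the values.

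Counts were divided by geometric size factors (DESeq2 1.42.0 in R 4.3.3; Control 1.15, LPS 1.06, WT PDZ+LPS 0.990, mut PDZ+LPS 0.851), and 1 was added before log2. A gene was tested with at least 16 normalized counts in either library, and called at 2-fold. Intervals were exact at 95%. The trend correction was lowess (span 0.3, statsmodels 0.14.6). Lengths, GC content and chromosomes came from GENCODE 29 and promoters from RefSeq, both GRCh38; 7 of the 10 members had a promoter entry, and MLST8, AKT1S1 and DEPTOR had none. Long members were the 5 with the longest transcripts.

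The members and lists were chosen with earlier results of these data known, the lists from general knowledge. Named were all members, pathway genes past 2-fold in any comparison, the highest and lowest of each list in LPS/Control whose mean reached 100 normalized counts, and the 3 genes most like MTOR; RHEBL1, RPS6KB2 and MTOR-AS1 were named as related rows, and the values of named genes in further comparisons were added. PRR5 did not reach 16 normalized counts in any comparison, and DDIT4L and the member DEPTOR not in mut PDZ+LPS/WT PDZ+LPS, where DEPTOR was still counted among the 10 members. Alternatives were upper-quartile, total-count and TMM (edgeR 4.0.16) scaling, 5 as the pseudocount, other expression rules and fold thresholds, and the correction. Removal of DEPTOR, a correction for length alone, corrected ratios and intervals under total-count scaling were chosen after seeing the data. The 2-fold calls and counting intervals in LPS/Control, and the removal of a length trend, were tested on simulated counts (Python 3.11.15). The simulated counts held Poisson counting error alone, which the intervals assume, so differences beyond counting error were not tested. The planted trend was one of length without GC content, so removal of a GC trend was not tested. The ratios, motif matches, pathway lists, decile positions and the ranking by likeness to MTOR were not tested on simulated counts.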

Additional observations from a re-analysis of the deposited data

Results flagged for a closer look

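RICTOR was picked out because its single libraries moved opposite ways under the peptides, at 0.24 in WT PDZ+LPS/LPS and at -0.43 in mut PDZ+LPS/LPS on the log2 scale. The difference between these values was not tested, since each condition had 1 library and both comparisons share the LPS library. With the length and GC trend subtracted, RICTOR was at 0.19 in WT PDZ+LPS/LPS (interval 0.077 to 0.31) and at 0.052 in mut PDZ+LPS/LPS (-0.089 to 0.19), so the opposite direction was not kept.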

How the results depend on the processing

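No paired analysis was possible because each condition had 1 library, and for the same reason no library could be left out. Under total-count scaling the medians in LPS/Control were -0.044 (10 members), -0.11 (long) and 0.11 (short). Here a member is said to turn if its uncorrected interval excluded 0 and its sign changed. The length and GC correction turned RICTOR (0.052) and TSC1 (0.31) in mut PDZ+LPS/LPS, as it did TSC2 (0.064) against WT PDZ+LPS. From uncorrected intervals that held 0, RPS6KB1 (0.26) in mut PDZ+LPS/LPS also changed sign. So did TSC1 (0.38) and RPS6KB1 (0.33) against WT PDZ+LPS, and all of these corrected intervals lay above 0. Under this correction the medians for the 10, long and short members were 0.0090, -0.034 and 0.19 in mut PDZ+LPS/LPS, with 0 pathway genes past 2-fold. Against WT PDZ+LPS they were 0.054, -0.14 and 0.31. With length alone corrected, MLST8 was at -0.24 in mut PDZ+LPS/LPS, and RICTOR (0.029), TSC1 (0.24) and TSC2 (0.10) turned in mut PDZ+LPS/LPS, as did TSC2 (0.20) against WT PDZ+LPS, with medians of 0.065, 0.029 and 0.21, and of 0.19, -0.070 and 0.23. At 1.5-fold, 1, 1, 1 and 2 members were past the threshold in the 4 comparisons, in the order of the report, and 6, 1, 9 and 9 pathway genes. The tested genes numbered 13277, 13236, 13378 and 13372, of which 1524, 570, 2367 and 2556 were past 1.5-fold. The member was DEPTOR in LPS/Control (0.60) and in WT PDZ+LPS/LPS (-0.79), with intervals that held 0. It was MTOR in mut PDZ+LPS/LPS, and MTOR and RICTOR passed in mut PDZ+LPS/WT PDZ+LPS. At 3-fold, 1 pathway gene was left in LPS/Control and 0 in both comparisons of mut PDZ+LPS. Without DEPTOR the short members had medians of 0.11 in LPS/Control and 0.10 in mut PDZ+LPS/LPS. The 3 longest and 3 shortest members had medians of -0.64 and 0.31 in the last comparison, mut PDZ+LPS/WT PDZ+LPS, where 0.31 is the value of DEPTOR itself, on 12 and 13 reads (interval -0.92 to 1.60). Over all genes, 647, 181, 528 and 570 were past 2-fold in the 4 comparisons, 2145, 2106, 2435 and 3057 without the expression rule, 383, 11, 217 and 247 with at least 64 normalized counts, 1524, 570, 2367 and 2556 at 1.5-fold and 288, 50, 122 and 139 at 3-fold; the length and GC correction left 267 and 261 in the last 2, and a pseudocount of 5 left 97 in WT PDZ+LPS/LPS. TMM scaling moved no member beyond its counting interval in any comparison. Depth limited DEPTOR, with 12 to 23 reads per library.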
